A study of Rattus norvegicus with 12 samples.

Results

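The RNA of antioxidant defence was followed through the stressed rat hippocampus in 6 genes, of 28959 rows in the deposited table. They were chosen by name for their role in antioxidant defence, but with earlier results of these data known: Nfe2l2 (ENSRNOG00000001548), Hmox1 (ENSRNOG00000014117), Nqo1 (ENSRNOG00000012772), Sod1 (ENSRNOG00000002115), Sod2 (ENSRNOG00000019048) and Cat (ENSRNOG00000008364). The table holds Ensembl gene IDs without names, so the names are those of the list that chose the rows. All 6 passed the filter on low values, 0.5 FPKM or more as the mean of the 12 libraries, as 15253 rows did. FPKM counts a gene's reads per length of the gene and per size of the library, so that levels of different genes can be set side by side.

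Hippocampal RNA was sequenced in Sprague Dawley rats with a stated age of 6 to 7 weeks, in 4 groups of 3 libraries. CUMS-Alb rats had 5 weeks of chronic unpredictable mild stress (CUMS), a series of changing mild stressors that serves as a rodent model of depression, and received albiflorin, a glycoside of peony root, at 7 mg/kg/d for the last 7 days. CUMS-Flx rats had the same stress and received fluoxetine, a serotonin reuptake inhibitor, for 7 days. Its dose was 10 mg/kg/d per the sample labels and 7 mg/kg/d per the series text. CUMS-Sal rats had the stress and 7 days of saline, and Ctrl-Sal rats had 7 days of saline without stress. The labels do not say that each library is a rat of its own, and p-values therefore reflect the spread of libraries only, possibly a technical one. The tissue could not be checked by marker genes, since the IDs are not paired with names here.

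The products of these genes limit reactive oxygen. Nfe2l2 encodes NRF2, a transcription factor that KEAP1 holds at a low level until electrophiles or oxidants release it. Hmox1 (haem oxygenase 1, which breaks down haem) and Nqo1 (a quinone reductase) are among its best known targets, reached through antioxidant response elements. Sod1, the copper-zinc enzyme of the cytosol, and Sod2, the manganese enzyme of the mitochondrial matrix, turn superoxide into hydrogen peroxide. Cat encodes catalase, the peroxisomal enzyme that splits hydrogen peroxide into water and oxygen. Brain tissue uses much oxygen and holds many oxidizable lipids, which is why these enzymes are often measured in models of stress.

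The 250 bases before the start of the superoxide dismutase genes and of Nqo1 are shown because Sod1 was the 1 member that passed the test and Sod2 its counterpart in another compartment, while Nqo1 is a textbook NRF2 target. The sequences are from RefSeq, build GRCr8, which is not the build of the deposited data, and 5 of the 6 genes had an entry. Capitals mark TATAAA, the core of a TATA box, and TGACNNNGC, the core of an antioxidant response element, each searched on both strands. The windows lie at chr11:42942573-42942822 on the plus strand for Sod1, chr1:50050169-50050418 on the minus strand for Sod2 and chr19:52220268-52220517 on the minus strand for Nqo1.
Sod1: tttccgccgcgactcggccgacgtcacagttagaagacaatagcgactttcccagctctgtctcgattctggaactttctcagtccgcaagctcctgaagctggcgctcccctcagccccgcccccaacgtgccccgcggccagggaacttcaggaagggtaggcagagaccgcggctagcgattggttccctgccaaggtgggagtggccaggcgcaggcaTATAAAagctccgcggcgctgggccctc
Sod2: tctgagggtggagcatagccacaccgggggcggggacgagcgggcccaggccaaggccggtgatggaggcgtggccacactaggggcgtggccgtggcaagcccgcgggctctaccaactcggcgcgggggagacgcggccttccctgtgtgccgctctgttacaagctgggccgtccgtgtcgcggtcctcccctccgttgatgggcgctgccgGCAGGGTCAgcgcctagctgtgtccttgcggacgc
Nqo1: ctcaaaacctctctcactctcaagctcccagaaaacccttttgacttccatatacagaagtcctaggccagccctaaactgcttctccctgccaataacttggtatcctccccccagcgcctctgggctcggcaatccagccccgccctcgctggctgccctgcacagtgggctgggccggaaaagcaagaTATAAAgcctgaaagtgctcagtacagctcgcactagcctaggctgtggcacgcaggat

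Sod1 held TATAAA with its first base 28 bases before the start, and Nqo1 held it 59 bases before. Neither the Sod1 nor the Nqo1 window held TGACNNNGC. Sod2 held no TATAAA and had 1 match to TGACNNNGC, read on the opposite strand, with its upstream end 35 bases before the start. Among 33469 such windows of rat genes, 12.9% held TATAAA and 10.1% held TGACNNNGC. GGGCGG, the GC box, was found 1 time each in Sod1, Sod2 and Nqo1 and 6 times in Nfe2l2, partly in overlapping copies, and in 30.5% of all windows. The window of Cat held none of the 3 motifs, and that of Nfe2l2 held neither TATAAA nor TGACNNNGC. The motifs do not overlap each other, apart from the copies of GGGCGG. They are matches of letters, and more distant elements would lie outside these windows.

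The 6 genes spanned the range from scarce to abundant transcripts, in an order that was the same in each of the 12 libraries. Sod1 averaged 161 FPKM over all libraries, above 97.5% of the tested rows, and Sod2 averaged 55.9 FPKM, above 90.4%. Cat followed at 26.8 FPKM (79.4%) and Nfe2l2 at 10.6 FPKM (57%). The NRF2 targets were the lowest, Nqo1 at 5.6 FPKM (41.5%) and Hmox1 at 2.84 FPKM (28.2%). In RefSeq GRCr8 a long noncoding RNA overlaps Hmox1 and a pseudogene overlaps Cat, and Sod2 has a pseudogene copy, so reads of these loci may not have been told apart. No neighbours in the order of levels overlapped. Sod2, at 51.3 FPKM in its lowest library, lay above Cat at 30.5 FPKM in its highest, and Nqo1, at 4.94 FPKM in its lowest, lay above Hmox1 at 3.78 FPKM in its highest.

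The genes differed in depth and in spread between libraries. Library totals recovered from the FPKM values ran from 14735953 to 18109623 reads. Sod1 and Sod2 rested on 1392 to 2049 and 1655 to 2177 reads per library, Cat on 839 to 1332, Nfe2l2 on 356 to 459, Nqo1 on 120 to 157 and Hmox1 on 63 to 91. At 63 reads the exact 95% Poisson interval runs from 48.4 to 80.6 reads, which covers counting error only. Within groups, the variance of the reads was 0.389 times that of counting for Nqo1, 1.04 times for Nfe2l2 and 1.48 times for Hmox1. It was 2.97 times for Sod2, 3.58 times for Sod1 and 6.49 times for Cat.

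**Figure D1:**
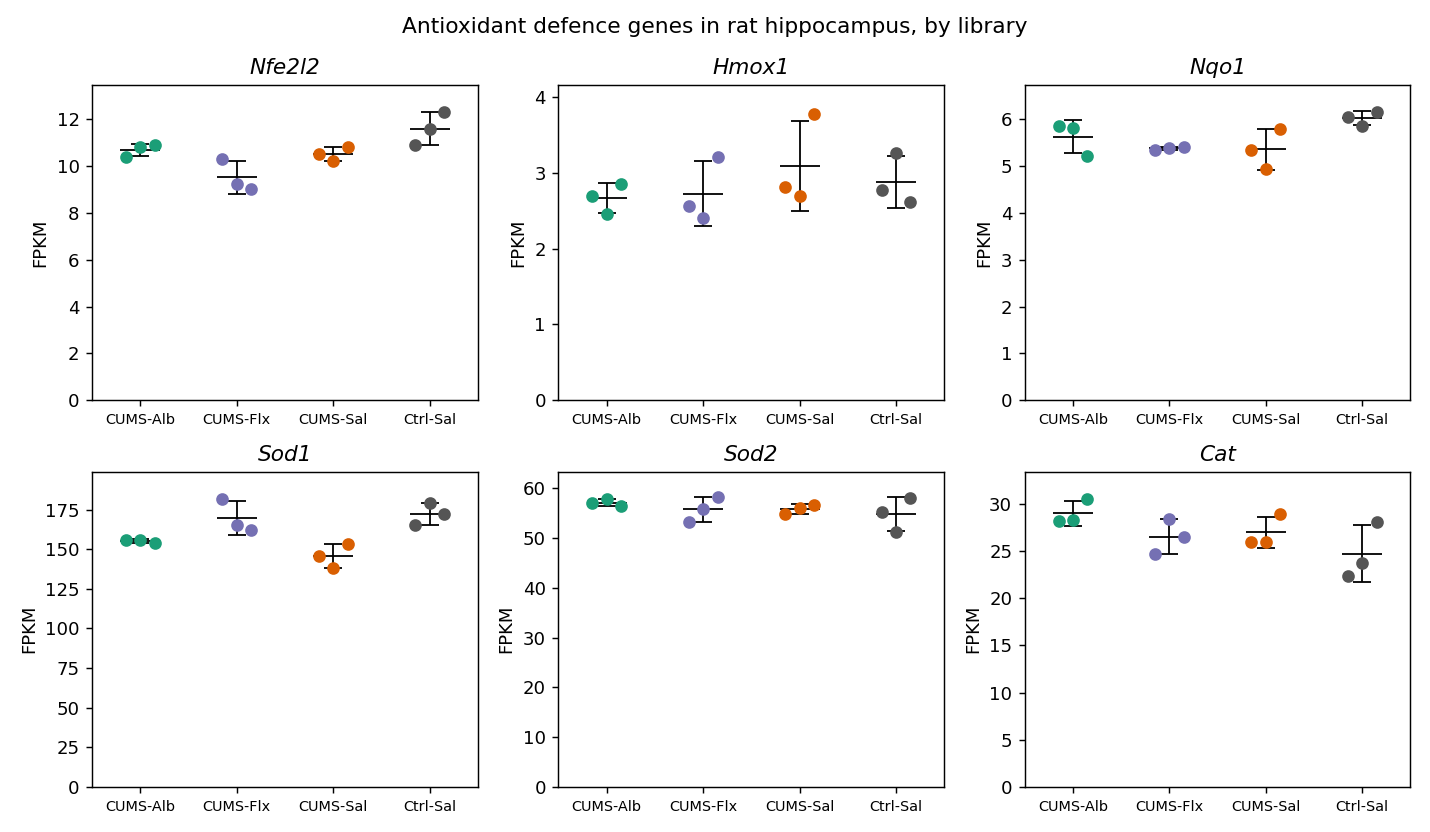
FPKM (vertical axes, from 0) of the 6 antioxidant defence genes in each library, by group; each point is 1 library, and the line and bars give the mean and SD of 3. Sod1 in CUMS-Sal lies below all Ctrl-Sal libraries, while the groups of Hmox1 and Sod2 overlap.

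The libraries themselves differed in ways that touch each comparison with Ctrl-Sal. Ctrl-Sal replicate 2 stood apart on principal component 1, which held 36% of the variance, at -44.7 against -12.2 to 15.1 for the others. The 9 rows that each took over 1% of the reads held 15.1% ± 0.485 of them in CUMS-Alb, 16.5% ± 1.99 in CUMS-Flx, 14.9% ± 0.157 in CUMS-Sal and 20% ± 2.32 in Ctrl-Sal (SD, n = 3 each). Their part in the results below was not tested, and values without Ctrl-Sal replicate 2 are given where a call is made.

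What stress alone did to antioxidant defence is asked by setting CUMS-Sal beside Ctrl-Sal. Sod1 fell by the test used here, a call that held in 10 and was lost in 12 of 22 alternatives, and none of the other 5 genes passed in either direction. Sod1 had 146, 138 and 153 FPKM in CUMS-Sal libraries 1 to 3, against 165, 179 and 172 FPKM in Ctrl-Sal. The highest stressed library thus lay below the lowest unstressed one. The means were 146 ± 7.37 FPKM in CUMS-Sal and 172 ± 6.79 FPKM in Ctrl-Sal (SD, n = 3 each). By limma over all 15253 rows, the log2 change of FPKM + 0.5 was -0.24 (SE 0.06, 95% interval -0.37 to -0.10, Benjamini-Hochberg adjusted p = 0.0387), a decrease of 15.3% that was present in 3 of 3 libraries. In bulk tissue, fewer cells of a type and less RNA per cell cannot be told apart.

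The NRF2 gene and its quinone reductase target also lay lower in CUMS-Sal, without passing the test. Nfe2l2 had 10.5, 10.2 and 10.8 FPKM in CUMS-Sal libraries, against 10.9, 11.6 and 12.3 FPKM in unstressed ones (a log2 change of -0.13, SE 0.07, adjusted p = 0.24 by limma). The groups did not overlap, although the nearest libraries almost touched. Nqo1 had 5.34, 4.94 and 5.8 FPKM in CUMS-Sal libraries, against 6.06, 5.87 and 6.16 FPKM in Ctrl-Sal (a log2 change of -0.16, SE 0.08, adjusted p = 0.213), again with no overlap. The nearest Nqo1 libraries almost touched too, at 141 reads in CUMS-Sal replicate 3 and 145 in Ctrl-Sal replicate 2. Their exact 95% Poisson intervals were 119 to 166 and 122 to 171 reads. Hmox1, the other target, had 2.81, 2.7 and 3.78 FPKM in CUMS-Sal, against 2.77, 3.26 and 2.61 FPKM in Ctrl-Sal. Its log2 change was 0.08 with a 95% interval of -0.22 to 0.38, the widest of the 6 genes, and the libraries overlapped. That interval holds the changes of Nfe2l2 and Nqo1, and without CUMS-Sal replicate 3 the value was -0.05.

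Neither the mitochondrial dismutase nor catalase passed the test. Sod2 varied least of the 6 over all 12 libraries, with a coefficient of variation of 3.66%. It had 54.8, 56 and 56.7 FPKM in CUMS-Sal, against 55.2, 51.3 and 58.1 FPKM in Ctrl-Sal, with a log2 change of 0.03 and a 95% interval of -0.10 to 0.15. Cat had 26, 26 and 28.9 FPKM in CUMS-Sal, against 22.4, 23.7 and 28.1 FPKM in Ctrl-Sal. Its groups overlapped, with a log2 change of 0.13 (95% interval -0.06 to 0.31, adjusted p = 0.355 by limma). The value moved to 0.22 (adjusted p = 0.0784) when Ctrl-Sal replicate 3 was left out, to 0.06 when replicate 1 of that group was, and to 0.08 when CUMS-Sal replicate 3 was.

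Counts over the 6 genes are given beside those over all rows. Sod1 was the 1 of 6 called, against 9.19% of all rows, and it was called lower, as 1.14% of all rows were. The share called over all rows rests on single libraries: 1402 rows were called, but 1 without CUMS-Sal replicate 2, 24 without CUMS-Sal replicate 3, 327 without CUMS-Sal replicate 1, 369 without Ctrl-Sal replicate 2 and 2637 when replicate 3 of that group was left out. Leaving out CUMS-Flx replicate 2 or CUMS-Alb replicate 1, 2 or 3 left 660, 564, 580 and 630. Sod1 was also the 1 of 6 with an unadjusted p under 0.05, against 30% of all rows, and limma-voom on recovered reads called it as well. Of the 6 log2 changes 3 were below 0, against 30.5% of all rows. The CUMS-Sal libraries lay wholly below Ctrl-Sal in 3 of the 6, Nfe2l2, Nqo1 and Sod1, against 5.85% of all rows. For Nfe2l2 and Nqo1 the nearest libraries almost touched. The median log2 change was -0.05 over the 6 genes and 0.10 over all rows. With that shift removed, by setting the median deviation of each library to 0, Sod1 was at -0.34 (adjusted p = 0.0334 by limma), Nqo1 at -0.26 (0.0701) and Nfe2l2 at -0.24 (0.0863). Hmox1 and Sod2 then turned to -0.02 and -0.08, and Cat stayed above 0 at 0.02.

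Sod1 is also among the shortest and most abundant transcripts, at 656 bp by the length recovered from the FPKM values, and such rows were lower in CUMS-Sal more often. Of 750 rows of up to 1600 bp and at least 50 FPKM, bounds set with the data known, 8.8% were called lower and 24.8% lay wholly below Ctrl-Sal, with a median log2 change of -0.03. The part of transcript length in the result was not tested. The call ended when any of 8 of the 12 libraries was left out. It ended without CUMS-Sal replicate 1, 2 or 3 (adjusted p = 0.075, 0.129 and 0.0721 by limma) and without Ctrl-Sal replicate 2 (0.0916, log2 change -0.21). It also ended without CUMS-Flx replicate 2 (0.0554) and without CUMS-Alb replicate 1, 2 or 3 (0.0558, 0.0577 and 0.0567), libraries that enter only through the shared spread. The log2 change stayed between -0.34 and -0.20 in all 22 alternatives, and with only CUMS-Sal and Ctrl-Sal in the fit the adjusted p was 0.141.

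**Figure D2:**
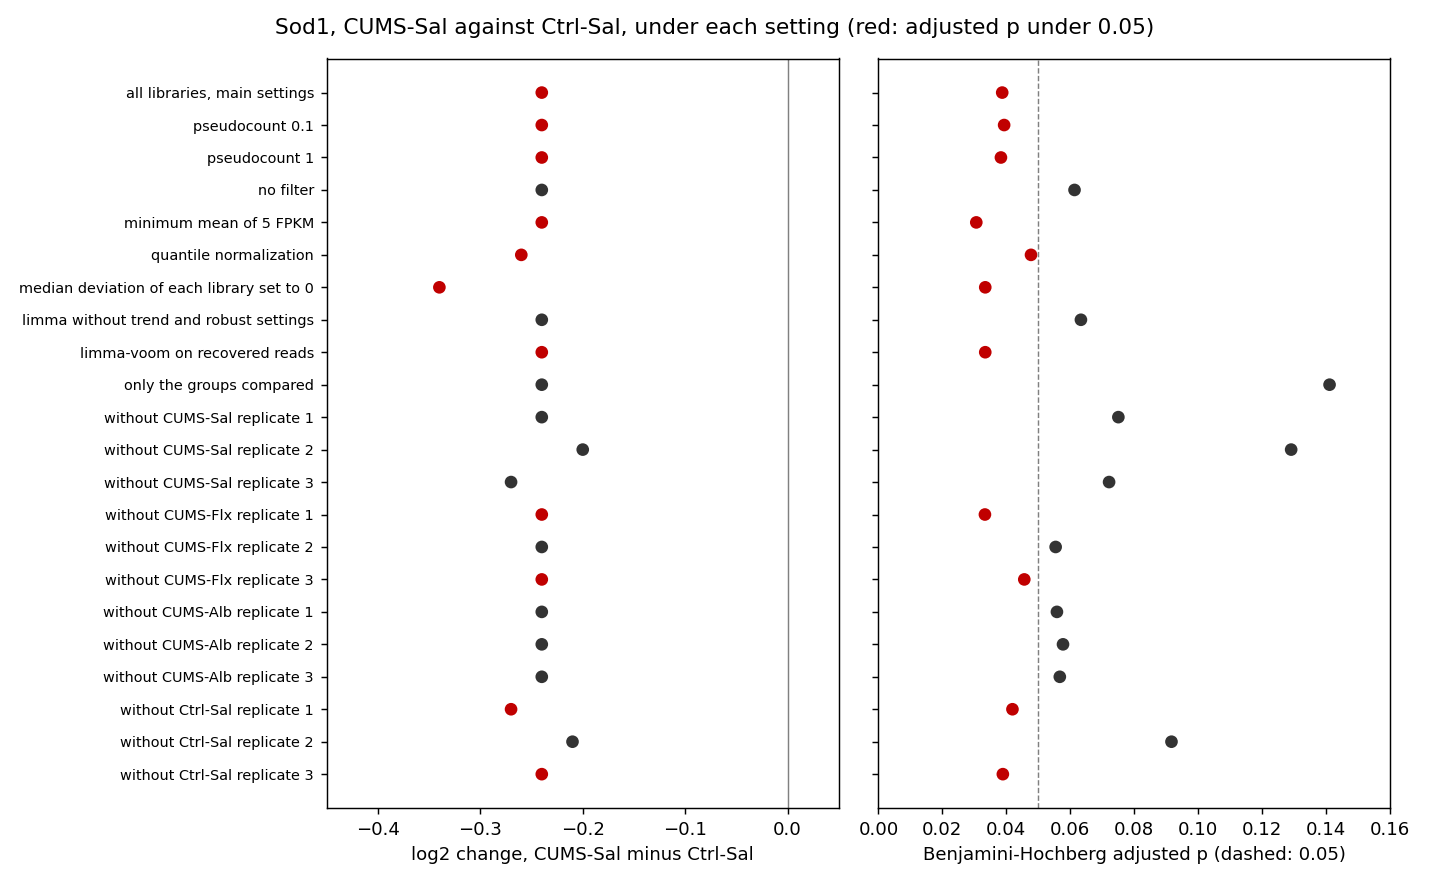
Log2 change of Sod1 in CUMS-Sal minus Ctrl-Sal (left) and its adjusted p (right), 1 point per fit, red where the adjusted p is under 0.05. Fits differ by setting or left-out library. The fit with the replicate number as a block, at an adjusted p of 0.0635 by limma, is not drawn. The changes all lie between -0.34 and -0.20, while the adjusted p runs from 0.0306 to 0.141 across the dashed threshold.

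Ratios within a library are free of its scaling. The ratio of Sod1 to Sod2 FPKM was 2.67, 2.46 and 2.69 in CUMS-Sal, against 2.99, 3.48 and 2.96 in Ctrl-Sal, with no overlap. The ratio of Sod1 to Cat was 5.62, 5.31 and 5.28 in CUMS-Sal, against 7.36, 7.52 and 6.12 in Ctrl-Sal, again apart. The cytosolic dismutase transcript was thus lower relative to both other transcripts in these libraries. Sod1, at 656 bp, is shorter than Sod2 at 2063 bp and Cat at 2539 bp, and the part of length in these ratios was not tested. How often ratios of other genes separate these groups was not computed. The ratio of Nqo1 to Nfe2l2 was 0.509 ± 0.0248 in CUMS-Sal and 0.521 ± 0.0314 in Ctrl-Sal (SD, n = 3 each), with overlapping libraries. With the drugs, the Sod1 to Sod2 ratio was 2.74, 2.7 and 2.74 in CUMS-Alb and 3.41, 2.96 and 2.77 in CUMS-Flx, each of these 6 values above the highest of CUMS-Sal. The Sod1 to Cat ratio was 5.53, 5.51 and 5.06 in CUMS-Alb, which overlapped CUMS-Sal and averaged below it (5.37 in CUMS-Alb and 5.4 in CUMS-Sal). In CUMS-Flx it was 7.35, 5.82 and 6.09, wholly above CUMS-Sal. These ratios are descriptions of values already tested and carry no test of their own. The CUMS-Sal libraries are the same in each comparison of ratios, which are thus not independent.

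**Figure D3:**
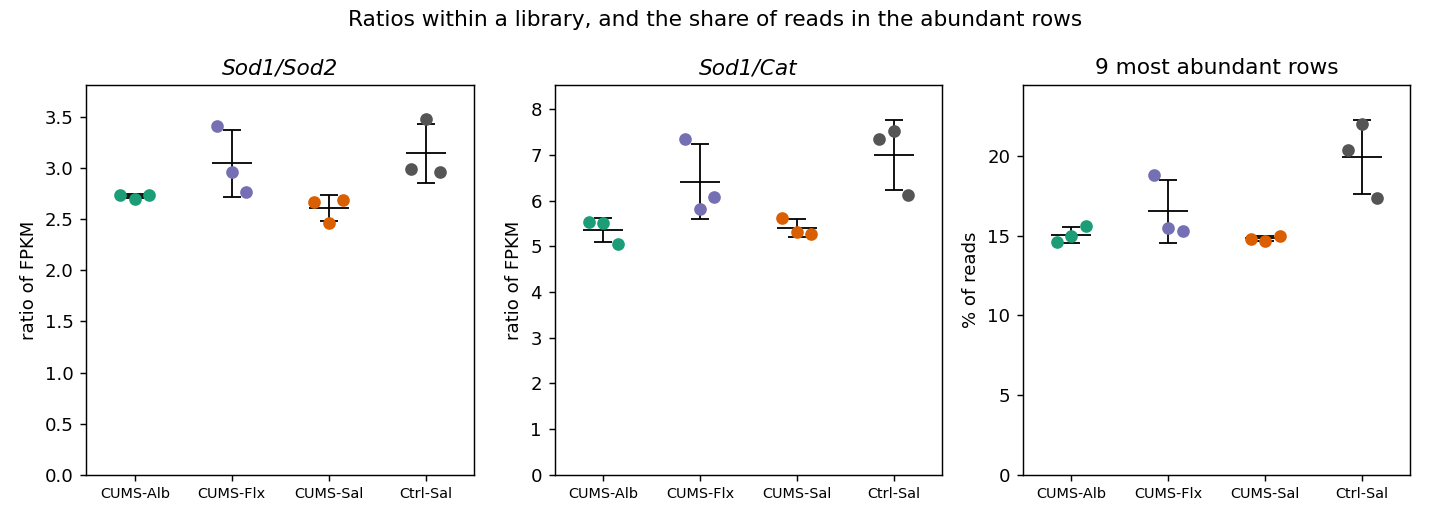
Ratio of Sod1 to Sod2 FPKM, ratio of Sod1 to Cat FPKM, and percent of reads in the 9 most abundant rows (vertical axes, from 0), by group; points are libraries, line and bars the mean and SD of 3. CUMS-Sal and Ctrl-Sal do not overlap in any of the panels, and CUMS-Flx replicate 1 lies within the range of Ctrl-Sal in each.

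The comparison of CUMS-Flx with CUMS-Sal asks what fluoxetine did in stressed rats. It uses the same CUMS-Sal libraries as the stress comparison, so opposite changes in these comparisons are not independent. Sod1 stood higher with fluoxetine in every library but did not pass the test over all rows. It had 182, 165 and 162 FPKM in CUMS-Flx, against 146, 138 and 153 FPKM in CUMS-Sal, which do not overlap. The log2 change was 0.22 (SE 0.06, 95% interval 0.08 to 0.35, unadjusted p = 0.00398, adjusted p = 0.383 by limma), rank 156 by p among all rows. Of all rows, 4.25% lay wholly higher in CUMS-Flx, and of the short abundant rows 12.4%. CUMS-Flx replicate 1, the library with the most Sod1, also held 18.8% of its reads in the 9 abundant rows, against 15.5 and 15.3% in the other CUMS-Flx libraries. Without that library the log2 change was 0.17 (adjusted p = 0.78 by limma). The part of the abundant rows in the Sod1 level was not tested.

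The NRF2 transcript averaged lower with fluoxetine, without passing the test. Nfe2l2 had 10.3, 9.23 and 9.02 FPKM in CUMS-Flx and 10.5, 10.2 and 10.8 FPKM in CUMS-Sal, overlapping by 1 library (log2 change -0.14, SE 0.07, adjusted p = 0.547 by limma). Nqo1 had 5.34, 5.38 and 5.42 FPKM in CUMS-Flx, inside the CUMS-Sal range of 4.94 to 5.8 FPKM. Hmox1 averaged 2.73 ± 0.426 FPKM in CUMS-Flx and 3.1 ± 0.592 FPKM in CUMS-Sal, Sod2 55.8 ± 2.47 and 55.8 ± 0.961 FPKM, and Cat 26.5 ± 1.83 and 27 ± 1.69 FPKM (SD, n = 3 each), all with overlap. For Sod2 the 95% interval of the log2 change was -0.13 to 0.13. By limma 0 of the 6 genes were called, as were 0% of all rows, 1 of 6 had an unadjusted p under 0.05 against 9.98% of all rows, and limma-voom on recovered reads called 0 as well.

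**Figure D4:**
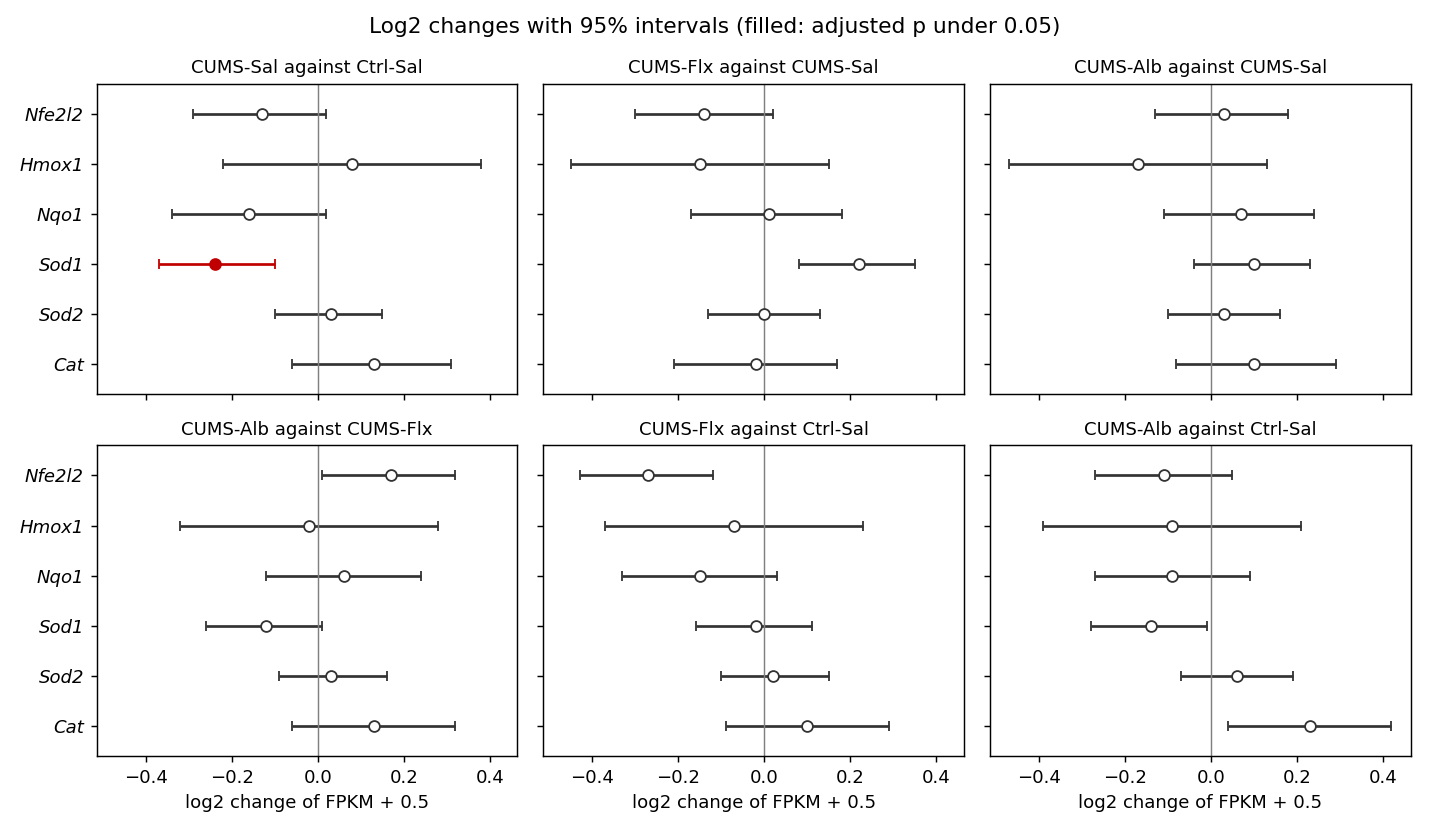
Log2 change of FPKM + 0.5 (horizontal axes) of the 6 genes in the 6 comparisons, with 95% intervals from limma; filled red marks an adjusted p under 0.05. Sod1 in CUMS-Sal against Ctrl-Sal, at -0.24, is the filled point, and the intervals of Hmox1 are the widest.

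The comparison of CUMS-Alb with CUMS-Sal asks the same of albiflorin. It shares the CUMS-Sal libraries with the stress and fluoxetine comparisons, so its changes are not independent of theirs. Sod1 had 156, 156 and 154 FPKM in CUMS-Alb and 146, 138 and 153 FPKM in CUMS-Sal. The albiflorin libraries were close together and just above the saline ones, with a log2 change of 0.10 (SE 0.06, 95% interval -0.04 to 0.23, unadjusted p = 0.147). The others overlapped. Cat averaged 29 ± 1.26 FPKM in CUMS-Alb and 27 ± 1.69 FPKM in CUMS-Sal, and Nqo1 5.64 ± 0.36 and 5.36 ± 0.432 FPKM (SD, n = 3 each). Nfe2l2 averaged 10.7 ± 0.252 FPKM in CUMS-Alb and 10.5 ± 0.337 FPKM in CUMS-Sal, and Hmox1 2.67 ± 0.196 and 3.1 ± 0.592 FPKM. Sod2 averaged 57.1 ± 0.727 FPKM in CUMS-Alb and 55.8 ± 0.961 FPKM in CUMS-Sal, with a 95% interval of the log2 change of -0.10 to 0.16. By limma 0 of 6 genes were called, against 0% of all rows, 0 of 6 had an unadjusted p under 0.05, against 3.66% of all rows, and limma-voom called 0. The 1 of 6 without overlap, Sod1, compares with 4.75% of all rows and 8.53% of the short abundant rows wholly higher in CUMS-Alb.

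The drugs were set against each other in CUMS-Alb against CUMS-Flx, at stated doses that differ in the sample labels. Nfe2l2 and Sod1 separated the drugs in opposite directions, neither past the test. Nfe2l2 had 10.4, 10.8 and 10.9 FPKM in CUMS-Alb and 10.3, 9.23 and 9.02 FPKM in CUMS-Flx (log2 change 0.17, SE 0.07, unadjusted p = 0.0431, adjusted p = 0.955 by limma). Sod1, at 154 to 156 FPKM in CUMS-Alb, lay below the 162 to 182 FPKM of CUMS-Flx (log2 change -0.12, SE 0.06, unadjusted p = 0.0701, adjusted p = 0.955). In all rows, 10.6% lay wholly higher and 3.13% wholly lower in CUMS-Alb. None of the 6 was called by limma, against 0.00656% of all rows, limma-voom called 0 of them, and 1 of 6 had an unadjusted p under 0.05, against 4.98%. The 95% interval of the log2 change was -0.09 to 0.16 for Sod2 and -0.06 to 0.32 for Cat. For Hmox1 it was -0.32 to 0.28, and for Nqo1 -0.12 to 0.24.

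Stressed rats given a drug were also compared with unstressed rats. These comparisons share the Ctrl-Sal libraries with the stress comparison, so likeness between them is not independent. For fluoxetine, Nfe2l2 was the gene farthest from Ctrl-Sal, at 9.51 ± 0.68 FPKM in CUMS-Flx and 11.6 ± 0.726 FPKM in Ctrl-Sal (SD, n = 3 each). The libraries did not overlap, and the log2 change was -0.27 (SE 0.07, 95% interval -0.43 to -0.12, unadjusted p = 0.00268, adjusted p = 0.126 by limma). Nqo1 lay wholly lower too, at 5.34 to 5.42 FPKM in CUMS-Flx and 5.87 to 6.16 FPKM in Ctrl-Sal (a log2 change of -0.15 with SE 0.08, adjusted p = 0.36). Of all rows, 5.75% lay wholly lower in CUMS-Flx. Sod1, at 169 ± 10.8 FPKM in CUMS-Flx and 172 ± 6.79 FPKM in Ctrl-Sal, overlapped, with a 95% interval of -0.16 to 0.11. The log2 changes of Cat, Hmox1 and Sod2 were 0.10, -0.07 and 0.02, with overlapping libraries. By limma 0 of 6 were called, against 0.0524% of all rows, 1 of 6 had an unadjusted p under 0.05, against 17.5%, and limma-voom called 0.

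For albiflorin, catalase and Sod1 stood on opposite sides of Ctrl-Sal, neither past the test. In this comparison the libraries of 31% of all rows did not overlap. Cat had 28.2, 28.3 and 30.5 FPKM in CUMS-Alb and 22.4, 23.7 and 28.1 FPKM in Ctrl-Sal. The groups were apart by a narrow margin at Ctrl-Sal replicate 3, and the log2 change was 0.23 (SE 0.09, 95% interval 0.04 to 0.42, unadjusted p = 0.0207, adjusted p = 0.115 by limma). Without that library it was 0.32 with an adjusted p of 0.024, and with library deviations set to 0 it was 0.14 with an adjusted p of 0.314. Of all rows, 24.6% lay wholly higher in CUMS-Alb. Sod1 lay wholly below, at 155 ± 1.1 FPKM in CUMS-Alb and 172 ± 6.79 FPKM in Ctrl-Sal (log2 change -0.14, SE 0.06, unadjusted p = 0.038, adjusted p = 0.158), as 6.37% of all rows and 25.5% of the short abundant rows did. Nfe2l2 averaged 10.7 ± 0.252 FPKM in CUMS-Alb and 11.6 ± 0.726 FPKM in Ctrl-Sal, and Nqo1 5.64 ± 0.36 and 6.03 ± 0.15 FPKM (SD, n = 3 each), each with overlap. The log2 changes of Hmox1 and Sod2 were -0.09 and 0.06, also with overlap. None of the 6 was called by limma, against 2.5% of all rows. Those 381 rows became 0 without CUMS-Sal replicate 1 or 3 or CUMS-Alb replicate 2 or 3, 1 to 25 without CUMS-Alb replicate 1, CUMS-Sal replicate 2, Ctrl-Sal replicate 2 or CUMS-Flx replicate 2 or 3, and 2356 without Ctrl-Sal replicate 3. In the fit of all libraries 2 of 6 had an unadjusted p under 0.05, against 27.4%, and limma-voom called 0.

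Over the 4 groups at once, a moderated F from the same limma fit called none of the 6, against 0.0459% of all rows. Sod1 had the largest F, at 6.54 (unadjusted p = 0.00681, adjusted p = 0.106), followed by Nfe2l2 at 4.73 (0.0203 and 0.148) and Cat at 2.36 (0.121 and 0.328). Nqo1 was at 1.61, Hmox1 at 0.639 and Sod2 at 0.324, with adjusted p of 0.47, 0.762 and 0.888. At an unadjusted p under 0.05 there were 2 of 6 genes, against 23.2% of all rows, and limma-voom on recovered reads called 0.

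Across the 12 libraries the 6 genes did not vary as 1 block. As a description, the log2 levels of Sod2 and Cat had a Pearson r of 0.63, those of Nfe2l2 and Nqo1 0.59 and those of Nqo1 and Sod1 0.48. Sod1 ran against Sod2 at -0.40 and against Cat at -0.35. Hmox1 had no r beyond 0.13 in size with any of the others, and between Nfe2l2 and Hmox1 it was 0.10. All genes of a library share its scaling, whose part in these r was not tested, and the r carry no p. Of all tested rows, ENSRNOG00000011521 and ENSRNOG00000026646 had the patterns most like that of Sod1 over the 12 libraries, with a Pearson r of 0.913 and 0.905. For the other 5 genes the 2 closest rows had an r of 0.881 to 0.939, values that are the highest of 15253.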

How the data were processed

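RNA was sequenced from rat hippocampus in 12 libraries, placed in 4 groups by title. TopHat2 and rn6 are named per the submitters' processing notes. Read counter, annotation release and strand setting: not given in the sources used here. Reads of overlapping or antisense transcripts and of pseudogenes (RefSeq lists Sod2-ps1) could not be set apart. The authors deposited FPKM values, a unit read from the values since the header names none.

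Whole reads and lengths were recovered by finding, per row, 1 length and whole reads that give its FPKM at 1 total per library. This succeeded for 100% of 22737 rows above 0, within 0.000118 of a read, and was tested on simulated data. Replicate pairs differed by more than counting noise in each case (chi-square per degree of freedom 3.61 to 24.0).

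Limma 3.58.1 in R 4.3.3, with trend and robust settings, fitted log2(FPKM + 0.5) of all 12 libraries with 1 coefficient per group. This scale understates changes of low genes such as Hmox1. P-values were adjusted by Benjamini-Hochberg over 15253 rows, and a gene was called under 0.05. The F over 4 groups is from the same fit. Alternatives are given at the end. The text names all 6 members in each comparison, and the 2 rows most like Sod1. Lists of related redox genes and cell type markers were written by name, but 0 IDs of the table are paired with names by the table or reference used here, so they were not used. Members and lists were chosen with earlier results of these data known. Python 3.11.15 with matplotlib 3.10.9 drew the figures.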

Additional observations from a re-analysis of the deposited data

How the results depend on the processing

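Of the 6 genes, 1 was called in CUMS-Sal against Ctrl-Sal, Sod1. The count was 0 with no filter on low values, with limma without trend and robust settings and with only the groups compared, and 0 to 1 when 1 library was left out. The adjusted p of Sod1 was then 0.0613, 0.0633 and 0.141. Rows called over the whole table numbered 1402, against 251, 740 and 0 in those fits, 529 with quantile normalization, 743 with library deviations set to 0 and 1863 with limma-voom, and 1 to 2637 when 1 library was left out. In CUMS-Alb against Ctrl-Sal the count was 0 to 1 when 1 library was left out, the 1 being Cat without Ctrl-Sal replicate 3, and 0 otherwise. Rows called there numbered 381, against 0 to 2356 when 1 library was left out, 3 with no filter, 996 with a minimum of 5 FPKM, 98 with quantile normalization, 28 with library deviations set to 0, 0 without trend and robust settings, 0 with the replicate block, 1 with only the groups compared and 1238 with limma-voom. When 1 library was left out, rows called in CUMS-Flx against Ctrl-Sal (8) ran from 1 to 544 and over the 4 groups (7) from 0 to 778, both highest without Ctrl-Sal replicate 3, and limma-voom called 55 and 389. In the comparisons among stressed groups 0 to 5 rows were called in every alternative run at the 0.05 threshold. Counts of the 6 genes in the other comparisons and over the 4 groups stayed at 0 in every alternative run.

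With the replicate number as a block, the count in CUMS-Sal against Ctrl-Sal was 0 and the adjusted p of Sod1 0.0635, with 565 rows called, and no other call of the 6 genes changed. No pairing by number was seen in the values. Deviations from the group means correlated at -0.16 to 0.13 over 18 pairs of the same number. Over 36 pairs of other numbers they correlated at -0.21 to 0.29, and 0 of 12 libraries were closest to their own number. With so few libraries per group this cannot exclude a pairing.

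Changes of sign occurred only in values that passed no test. With quantile normalization and with library deviations set to 0, in that order, CUMS-Sal against Ctrl-Sal turned to -0.09 and -0.02 for Hmox1 and to -0.04 and -0.08 for Sod2. CUMS-Flx against CUMS-Sal turned to 0.01 and 0.05 for Sod2 and to 0.02 and 0.03 for Cat. Sod2 turned to -0.03 in both for CUMS-Flx against Ctrl-Sal and to -0.01 and -0.04 for CUMS-Alb against Ctrl-Sal. In CUMS-Alb against CUMS-Flx, Nqo1 turned to -0.01 with quantile normalization and Sod2 to -0.01 with deviations set to 0. Leaving out 1 library gave -0.05 to 0.16 for Hmox1 and -0.02 to 0.07 for Sod2 in CUMS-Sal against Ctrl-Sal. In CUMS-Flx against CUMS-Sal it gave -0.05 to 0.06 for Nqo1, -0.03 to 0.03 for Sod2 and -0.07 to 0.03 for Cat. In CUMS-Alb against CUMS-Flx it gave -0.09 to 0.09 for Hmox1. In CUMS-Flx against Ctrl-Sal it gave -0.18 to 0.01 for Hmox1, -0.07 to 0.01 for Sod1 and -0.02 to 0.07 for Sod2. The causes were not tested. A minimum of 5 FPKM removed Hmox1, so it has no value there, and alternatives for the related gene lists were not run. Depth limits Hmox1 most, at 63 to 91 reads per library.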
